A study of Mus musculus with 4 samples.

Results

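The tripartite motif (TRIM) proteins were described here through the messenger RNA of every protein-coding gene whose symbol is Trim followed by a number, in mouse bone marrow-derived dendritic cells exposed to Wnt2 or to fibroblast-conditioned medium. The symbols matched 43 of the 13685 genes in the deposited tables. GENCODE M21 annotates 68 protein-coding genes with such a symbol, and the other 25 have no row in the tables used here. All cells came from the bone marrow of C57BL/6 mice aged 4 weeks and were cultured for 7 days in 10 ng/ml interleukin-4 and 10 ng/ml GM-CSF, which every group shared. There were 4 groups, with dendritic cells exposed to Wnt2 (a secreted Wnt ligand), to CAF.CM mixed beforehand with a Wnt2 antibody, to CAF.CM alone, or to control medium. CAF.CM is culture medium of CAFs, the usual abbreviation of cancer-associated fibroblasts. The labels do not state where the fibroblasts came from, how much Wnt2 was used or how long the exposure lasted. Each group had 1 library of ribosomal RNA-depleted total RNA, although the series text speaks of triplicates, so no difference has a replicate check and no test across samples was possible.

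TRIM proteins are built from a RING finger, 1 or more B-boxes and a coiled coil, followed by a variable carboxyl-terminal domain, and most of them are E3 ubiquitin ligases. Many members take part in the defence against viruses, either by binding viral parts or by attaching ubiquitin to the sensors RIG-I, MDA5 and cGAS and their adaptors, and many are themselves induced by interferon in macrophages and dendritic cells. Other branches of the family bind chromatin, microtubules or organelle membranes.

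Reads assigned to the listed genes came to 154399767 in the Wnt2 library, 22791494 in the antibody library, 25225220 in the CAF.CM library and 143071376 in the control library. A single read was thus worth 0.0384 CPM (reads scaled to a common library size, the deposited unit) with CAF.CM and 0.00706 CPM in control medium. All 10 dendritic cell markers examined had rows in the tables. Over the 9 that had a row in every table, their summed level was 755 CPM with Wnt2, 1573 CPM with the antibody and 1723 CPM with CAF.CM, against 3345 CPM in control medium. With CAF.CM, 2 of the 9, Itgax and Cd74, were at least 2-fold below control, and 3 of the 9 were above it. The sum of 9 macrophage markers was 19925 CPM with Wnt2, 5676 CPM with the antibody and 8551 CPM with CAF.CM, against 28502 CPM in control medium. Lyz2 alone held 6907 CPM of this with CAF.CM and 25764 CPM in control medium. Of the 9, 6 were at least 2-fold lower with CAF.CM, while Adgre1 was higher, at 404 CPM against 349 CPM. Of the 8 fibroblast markers, 3 had a row in every table, summing to 4.15 CPM with Wnt2, 16.5 CPM with the antibody and 15 CPM with CAF.CM, against 4.78 CPM in control medium, and Col1a1, Pdgfra and Lum had no row. The rise with CAF.CM was in Dcn, at 10.7 CPM against 0.509 CPM in control medium, while Pdgfrb and Thy1 were near level. Of the 7 neutrophil markers, 2 had rows, summing to 1501 CPM with Wnt2, 102 CPM with the antibody and 144 CPM with CAF.CM, against 548 CPM in control medium. Nearly all of this was Mmp8, at 1489 CPM with Wnt2 and 140.1 CPM with CAF.CM, against 544 CPM in control medium. None of these markers with rows was at 0. The part of these shifts in the values of the TRIM genes was not tested, and in bulk RNA fewer cells of a type and less RNA per cell cannot be told apart.

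The 40 members listed in all tables together reached 1140.1 CPM with Wnt2, 1424 CPM with CAF.CM plus antibody and 1585 CPM with CAF.CM, against 1098 CPM in control medium. Trim25 made up 16.1% of this total with Wnt2, 32.4% with the antibody and 28.3% with CAF.CM, against 8.98% in control medium. The 7 listed members of a gene cluster on chromosome 7 summed to 179.8 CPM with Wnt2, 229 CPM with the antibody and 352 CPM with CAF.CM, against 190.4 CPM in control medium. The other 32 members summed to between 734 and 809 CPM in each library. The gain of the family with CAF.CM thus lay in Trim25 and the chromosome 7 genes, and with the antibody the chromosome 7 sum was near its control value while Trim25 was not.

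**Figure D1:**
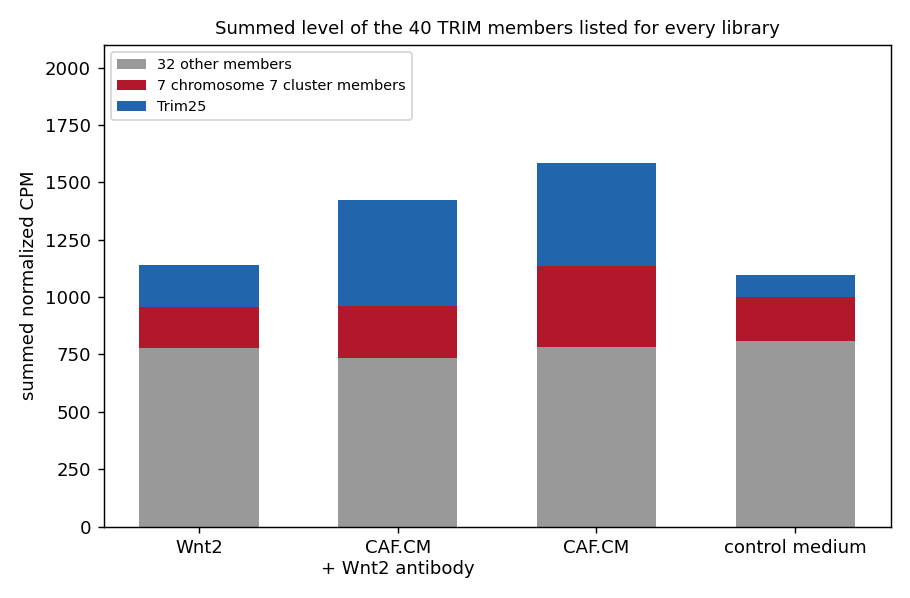
Summed CPM of the 40 TRIM members listed in every table, stacked as Trim25, the 7 chromosome 7 cluster members and the other 32 members, for each library. Trim25 holds 461 CPM with the antibody and 449 CPM with CAF.CM against 98.6 CPM in control medium, while the other 32 members hold 734 to 809 CPM throughout.

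Single members spanned a wide range. Per kilobase of transcript, Trim25 stood at 80.3 CPM per kb with CAF.CM, against 17.6 CPM per kb in control medium, where Trim28 led with 26.3 CPM per kb and Trim35 followed with 23.8 CPM per kb. At the low end, Trim30b, Trim30c and Trim43c lay between 1.11 and 1.34 CPM with CAF.CM and below 1 CPM in control medium, and these 3 had no row in the Wnt2 table.

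**Figure D2:**
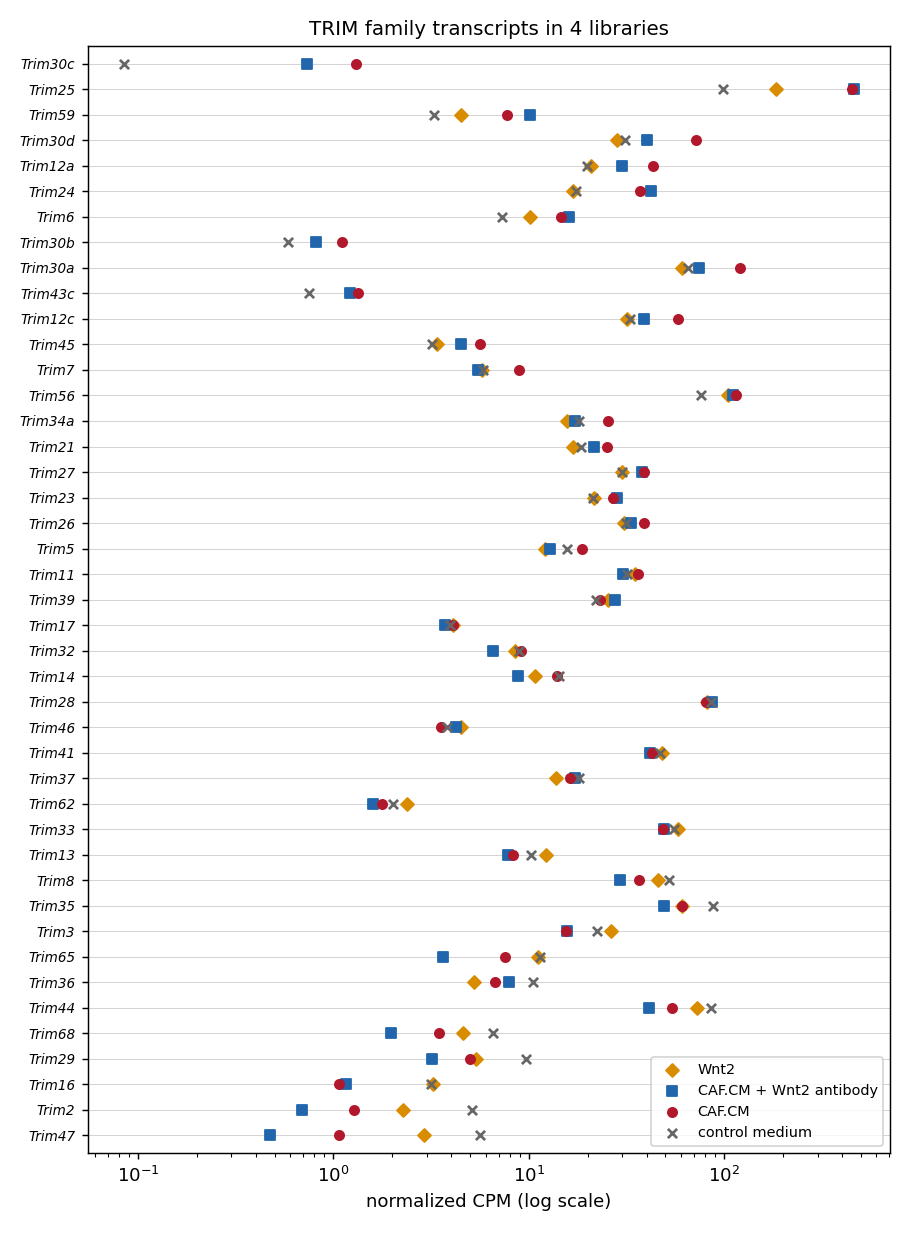
CPM of each TRIM member in the Wnt2, antibody, CAF.CM and control libraries on a logarithmic axis, ordered by the CAF.CM to control ratio with the highest at the top. The symbols of one row lie close together for most members, while Trim25 reaches 449 CPM with CAF.CM against 98.6 CPM in control medium and Trim47 drops to 1.07 CPM against 5.62 CPM.

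Ratios were taken on the log2 scale after adding 2 reads to each library, and a gene was called higher or lower where the ratio reached 2-fold. With CAF.CM against control medium, 6 of 43 members were called higher, namely Trim25, Trim30c, Trim59, Trim30d, Trim12a and Trim24, where 6.68% of all 13329 listed genes were called higher. For Trim30c only the CAF.CM value was above 1 CPM, the level for listing, so the listing fixed its direction. Another 3, Trim47, Trim2 and Trim16, were called lower, where 8.69% of all genes were. The median member had a log2 ratio of 0.06, against -0.04 over all genes, so the median member stood close to the median gene, and the share of lower members (6.98%) was near the background. At 1.5-fold, 14 members were higher and 8 lower, where 13.8% and 17.9% of all genes were. Of the 14, Trim30b, Trim30c and Trim43c were above 1 CPM only with CAF.CM, so the listing fixed their direction. Trim24 lay just inside the 2-fold line at 2.12-fold and Trim6 on it at a rounded log2 ratio of 1.00, counted as outside.

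With CAF.CM plus antibody, 0 of 43 members were called higher than with CAF.CM alone, where 1.01% of all 13072 listed genes were. Another 2 members, Trim47 and Trim65, were called lower, where 3.64% of all genes were. For Trim47 only the CAF.CM value of this pair was above 1 CPM, the level for listing, so the listing fixed its direction. The median member had a log2 ratio of -0.22 with the antibody, against -0.04 over all genes. At 1.5-fold, 10 members were lower (Trim65, Trim47, Trim30d, Trim2, Trim68, Trim30c, Trim30a, Trim7, Trim14 and Trim29), where 10.7% of all genes were, and 0 were higher, where 4.41% of all genes were. Of the 10, Trim47, Trim2 and Trim30c were listed in this comparison only through their CAF.CM values, so the listing fixed their direction. The CAF.CM library stands in both comparisons, so an error in it alone would move the ratios of a gene in opposite directions.

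Of the 43 members, 0 met the interferon-like pattern, higher with CAF.CM than in control medium and lower with the antibody than with CAF.CM, at 2-fold in each step, where 0.786% of all 12848 genes listed in both tables did. At 1.5-fold in each step, 4 members met it, Trim30a, Trim30c, Trim30d and Trim7, where 2.35% of all genes did. Of these, Trim30c was listed only through its CAF.CM value, so its direction in both steps was fixed by the listing. By counting error alone, 21 members had a 95% interval above 0 with CAF.CM, where 32.5% of all genes did, and 16 had one below 0, where 40.3% did. Of the 21, Trim30b, Trim30c and Trim43c were listed for this step only through their CAF.CM values, so the listing fixed their direction. With the antibody, 19 members had an interval below 0, where 29.2% of all genes did. Among the 19, Trim47 was listed for this step only through its CAF.CM value, so the listing fixed its direction there. In both steps, 10 members had intervals beyond 0 in the interferon-like direction (Trim11, Trim12a, Trim12c, Trim21, Trim26, Trim30a, Trim30d, Trim34a, Trim5 and Trim7), where 7.8% of all genes did. Another 11 members had an interval above 0 with CAF.CM but none below 0 with the antibody, among them Trim25, Trim24, Trim59, Trim56 and Trim6, which is 25.6% of members where 25.9% of all genes did. Trim30b, Trim30c and Trim43c, with a CAF.CM direction fixed by the listing, are also among the 11. A further 7 members (Trim29, Trim35, Trim44, Trim47, Trim65, Trim68 and Trim8) had intervals below 0 in both steps, 16.3% of members where 16.5% of all genes did, so both shares were near the background. The antibody step of Trim47, among the 7, was fixed by the listing. These exact intervals cover counting error only, not the spread between cultures.

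**Figure D3:**
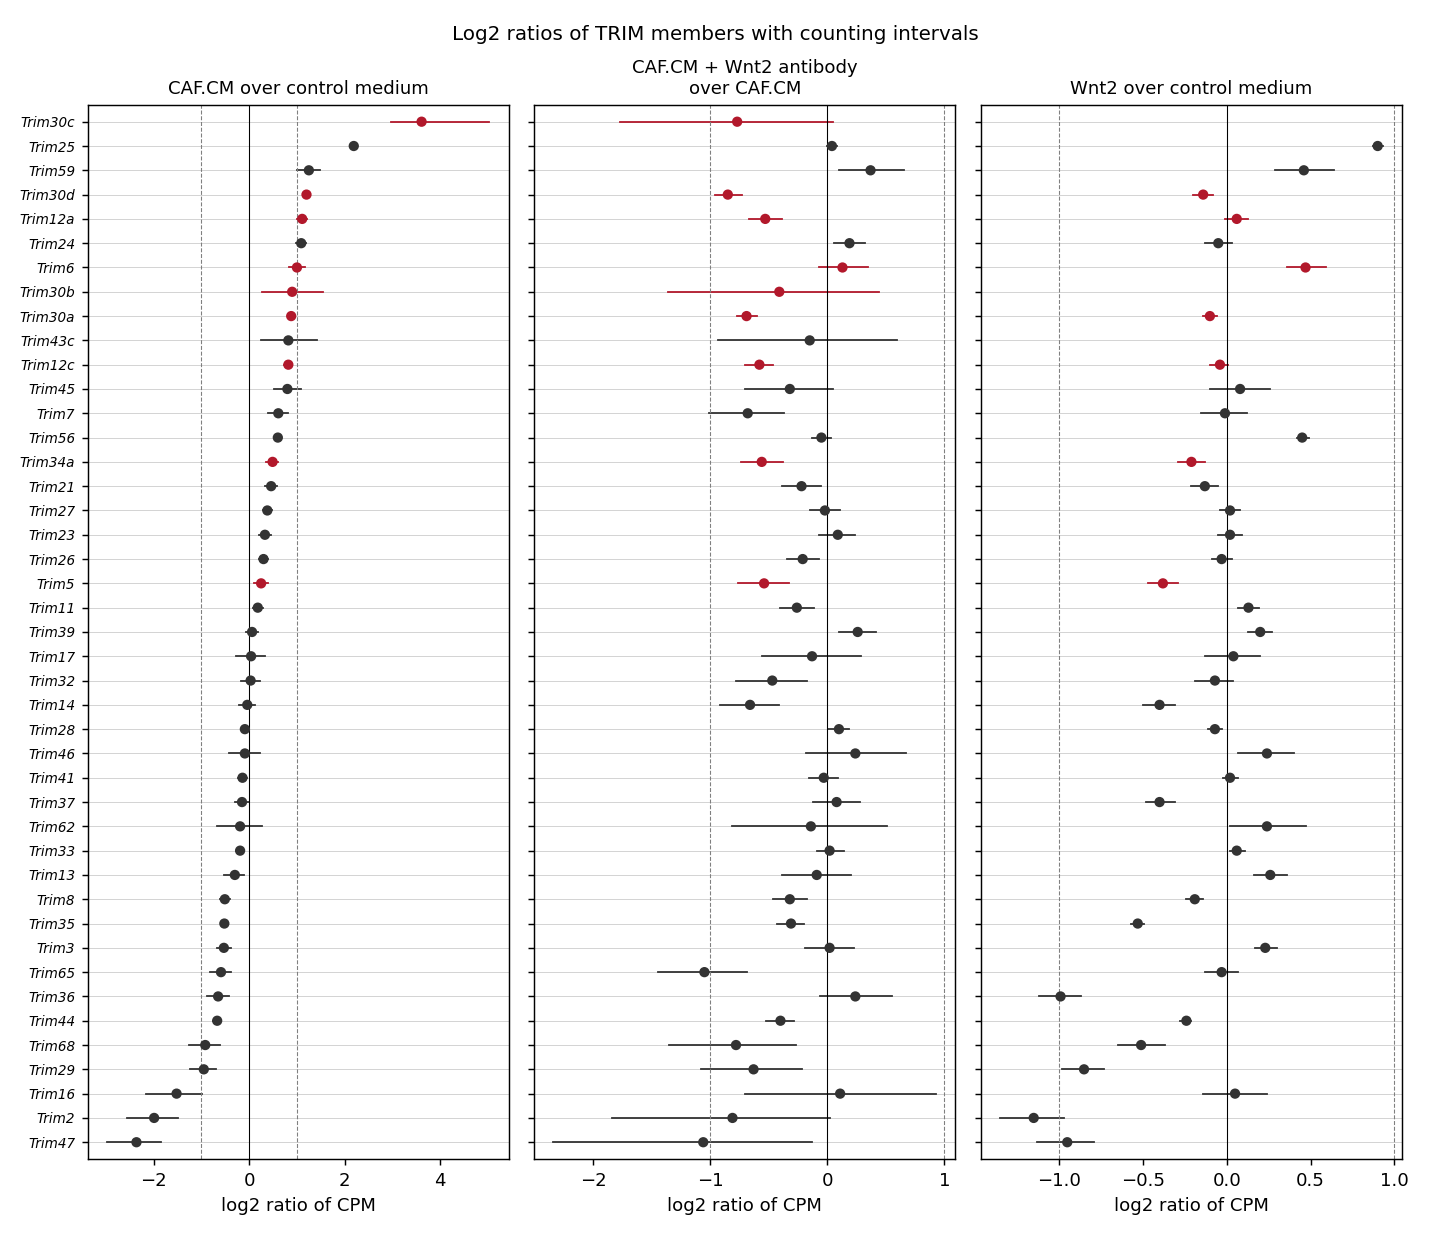
Log2 ratios of each TRIM member with 95% counting intervals for CAF.CM over control, antibody over CAF.CM and Wnt2 over control, with dashed lines at 2-fold and the chromosome 7 cluster in red. Cluster genes lie right of 0 in the CAF.CM panel and, apart from Trim6, left of 0 in the antibody panel, while Trim25 is far right with CAF.CM (2.19) and near 0 with the antibody (0.04).

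The chromosome 7 cluster runs from Trim6 at position 104218793 to the end of Trim30d at position 104507849 (GENCODE M21, build GRCm38). It holds the mouse relatives of human TRIM5, whose protein binds the capsids of incoming retroviruses, together with Trim6, Trim34a and the mouse Trim30 genes. Of its 10 annotated protein-coding members 9 were listed, all but Trim34b. All 9 had a ratio above 0 with CAF.CM, with a median of 0.90, where 6215 of all 13329 genes had. With the antibody, 8 of the 9, all but Trim6, had a ratio below 0, with a median of -0.56, where 7166 of all 13072 genes had. Trim30b and Trim30c were above 1 CPM, the level for listing, only with CAF.CM, so the listing fixed their signs. The 34 members outside the cluster had medians of -0.09 and -0.14.

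Promoters of these genes are shown because several carry a word of the interferon-stimulated response element, a sequence bound by interferon regulatory factors. The windows run from 250 bases before to 50 bases after a RefSeq transcription start on GRCm38.p6 and are written 5′ to 3′ on the strand of the gene, with capitals marking the longest match. The positions are chr7:104465144-104465443 on the minus strand for Trim30a, chr7:104507800-104508099 on the minus strand for Trim30d, chr7:104353300-104353599 on the minus strand for Trim12c, and chr7:104244207-104244506 on the plus strand for Trim34a. Trim25, the most abundant member with CAF.CM, is given for contrast at chr11:88999153-88999452 on the plus strand.
Trim30a: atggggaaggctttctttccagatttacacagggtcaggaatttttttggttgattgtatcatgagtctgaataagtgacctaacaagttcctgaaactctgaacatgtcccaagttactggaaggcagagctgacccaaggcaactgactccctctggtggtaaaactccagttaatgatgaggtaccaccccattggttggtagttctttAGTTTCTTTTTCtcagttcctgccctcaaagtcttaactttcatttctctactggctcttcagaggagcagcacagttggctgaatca
Trim30d: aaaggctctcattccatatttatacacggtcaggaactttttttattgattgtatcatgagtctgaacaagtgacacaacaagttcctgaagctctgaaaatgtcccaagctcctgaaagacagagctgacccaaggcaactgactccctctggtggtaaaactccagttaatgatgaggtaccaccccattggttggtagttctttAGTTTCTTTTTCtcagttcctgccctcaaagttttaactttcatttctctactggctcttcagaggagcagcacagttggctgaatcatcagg
Trim12c: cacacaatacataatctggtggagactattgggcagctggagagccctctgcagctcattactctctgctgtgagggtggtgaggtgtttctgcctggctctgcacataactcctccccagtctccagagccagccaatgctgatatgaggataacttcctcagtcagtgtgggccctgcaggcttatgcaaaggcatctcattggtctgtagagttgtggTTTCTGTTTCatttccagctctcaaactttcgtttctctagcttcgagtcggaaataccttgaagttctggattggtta
Trim34a: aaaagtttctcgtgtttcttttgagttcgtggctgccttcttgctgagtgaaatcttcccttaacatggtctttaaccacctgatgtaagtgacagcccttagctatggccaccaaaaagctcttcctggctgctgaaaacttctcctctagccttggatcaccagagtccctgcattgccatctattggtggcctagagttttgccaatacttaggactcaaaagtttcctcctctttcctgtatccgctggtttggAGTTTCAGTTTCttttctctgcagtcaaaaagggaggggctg
Trim25: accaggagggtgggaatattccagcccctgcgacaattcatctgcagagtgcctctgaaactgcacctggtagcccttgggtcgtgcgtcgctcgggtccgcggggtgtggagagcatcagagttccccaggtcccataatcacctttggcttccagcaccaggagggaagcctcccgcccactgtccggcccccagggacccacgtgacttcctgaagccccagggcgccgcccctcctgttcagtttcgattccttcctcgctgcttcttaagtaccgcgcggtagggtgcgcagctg

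RefSeq windows were available for 31 of the 43 members. The shorter word searched was GAAA, then any 2 bases, then GAAA, on both strands. It occurred in those of 9 members (Trim12a, Trim12c, Trim2, Trim21, Trim26, Trim30a, Trim30d, Trim34a and Trim5), and in those of 3.99% of all 27025 genes. By window, 10 of the 43 windows of members held it, and 3.44% of all 32851 windows. Around the word the windows of Trim5, Trim12a and Trim12c were closely alike, as were those of Trim30a and Trim30d. These members are therefore not independent occurrences of it. In the sequences printed here it reads as its reverse complement, so that the capitals begin or end with TTTC. Its longer form, the same word followed by CT and so always containing the shorter one, occurred in Trim30a, Trim30d and Trim34a, and in 0.303% of all genes (0.271% of windows). The word TTCNNNGAA of the gamma-activated site was found for Trim30c, Trim45 and Trim46, and in 9.55% of all genes (8.3% of windows). The Trim25 window held none of these words. The 9 members with the shorter word had a median log2 ratio of 0.49 with CAF.CM, with 8 of 9 above 0 and Trim2 lower at -1.99. With the antibody their median was -0.56, with 9 of 9 below 0. The 22 members without it had medians of 0.20 and -0.04, with 13 above 0 with CAF.CM and 13 below 0 with the antibody. The listing fixed the antibody sign of Trim2 among the 9. Among the 22 it fixed both signs of Trim30b and Trim30c and the antibody sign of Trim47. Trim12a, Trim12c, Trim30a, Trim30d, Trim34a and Trim5 of the 9 lie in the chromosome 7 cluster, so this split largely repeats the cluster values. Over all listed genes with a window, those with the word had medians of 0.06 and -0.16, against -0.07 and -0.04 without it. Of the 374 listed genes with the word, 259 were below 0 with the antibody, as were 4923 of the 8811 without it. A word in these windows describes the sequence and shows no binding.

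Trim30a is a mouse protein known to restrain NF-kB signalling by driving the loss of the adaptors TAB2 and TAB3. It had 60.9 CPM with Wnt2, 74.6 CPM with the antibody and 120.2 CPM with CAF.CM, against 65.1 CPM in control medium. Its log2 ratio was 0.88 (95% counting interval 0.82 to 0.94) with CAF.CM over control and -0.69 (-0.77 to -0.60) with the antibody over CAF.CM. Only the CAF.CM library stood high, and 17.2% of the excess over control was left with the antibody.

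Its neighbour Trim30d had 28.4 CPM with Wnt2, 40 CPM with the antibody and 71.9 CPM with CAF.CM, against 31.2 CPM in control medium. It was 2.3-fold higher with CAF.CM (log2 interval 1.13 to 1.28), and its log2 ratio was -0.85 (-0.96 to -0.73) with the antibody, the lowest antibody ratio in the cluster, and 21.6% of the excess was left. Trim30c rested on 17 reads (0.733 CPM) with the antibody and 34 reads (1.31 CPM) with CAF.CM, against 12 reads (0.085 CPM) in control medium. That is 12.2-fold higher with CAF.CM, a log2 ratio of 3.61 with a wide interval of 2.96 to 5.03, and the antibody ratio of -0.77 had an interval (-1.77 to 0.05) that includes 0. The fourth Trim30 gene, Trim30b, was at 0.819 CPM with the antibody and 1.11 CPM with CAF.CM, against 0.586 CPM in control medium, on 19 reads with the antibody and 29 with CAF.CM, against 83 in control medium. The 4 genes of the Trim30 group thus all had higher values with CAF.CM and lower values with the antibody, 2 of them on few reads. Those 2, Trim30b and Trim30c, were above 1 CPM, the level for listing, only with CAF.CM. Their direction in both steps was therefore fixed by the listing and adds nothing to that of Trim30a and Trim30d.

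Trim12a and Trim12c encode rodent relatives of the human TRIM5 protein. Trim12a had 20.8 CPM with Wnt2, 29.9 CPM with the antibody and 43.2 CPM with CAF.CM, against 19.9 CPM in control medium. Its log2 ratio was 1.11 (1.01 to 1.21) with CAF.CM and -0.53 (-0.67 to -0.39) with the antibody, and 42.9% of its excess was left. Trim12c had 31.9 CPM with Wnt2, 38.8 CPM with the antibody and 58.1 CPM with CAF.CM, against 32.9 CPM in control medium. It was 1.76-fold higher with CAF.CM and 1.49-fold lower with the antibody, just outside 1.5-fold in the second step. Both genes were highest in the CAF.CM library and lay between the CAF.CM and control values with the antibody.

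Trim34a was at 15.6 CPM with Wnt2, 17.2 CPM with the antibody and 25.4 CPM with CAF.CM, against 18.1 CPM in control medium, with log2 ratios of 0.49 with CAF.CM and -0.56 with the antibody. Trim5 was at 12.1 CPM with Wnt2, 12.8 CPM with the antibody and 18.7 CPM with CAF.CM, against 15.7 CPM in control medium, with log2 ratios of 0.25 and -0.54. In these 2 genes the antibody value lay below that of control medium, with log2 ratios of -0.07 and -0.30 for antibody over control. Trim6 is known in human cells for making free ubiquitin chains that activate the kinase IKK-epsilon. It had 10.1 CPM with Wnt2, 16.1 CPM with the antibody and 14.6 CPM with CAF.CM, against 7.31 CPM in control medium. Trim6 was the one cluster member not lower with the antibody, with a log2 ratio of 0.13 and an interval of -0.07 to 0.35. Near-identical copies limit how reads are assigned to these genes. The main transcript shared 49.8% of its 31-base words with another gene in Trim34a, 49% in Trim5, 43.7% in Trim12c, 33.3% in Trim12a, 12.3% in Trim30d, 10.2% in Trim30a and 0.32% in Trim6. The main partner was another TRIM gene in all of these but Trim6.

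**Figure D4:**
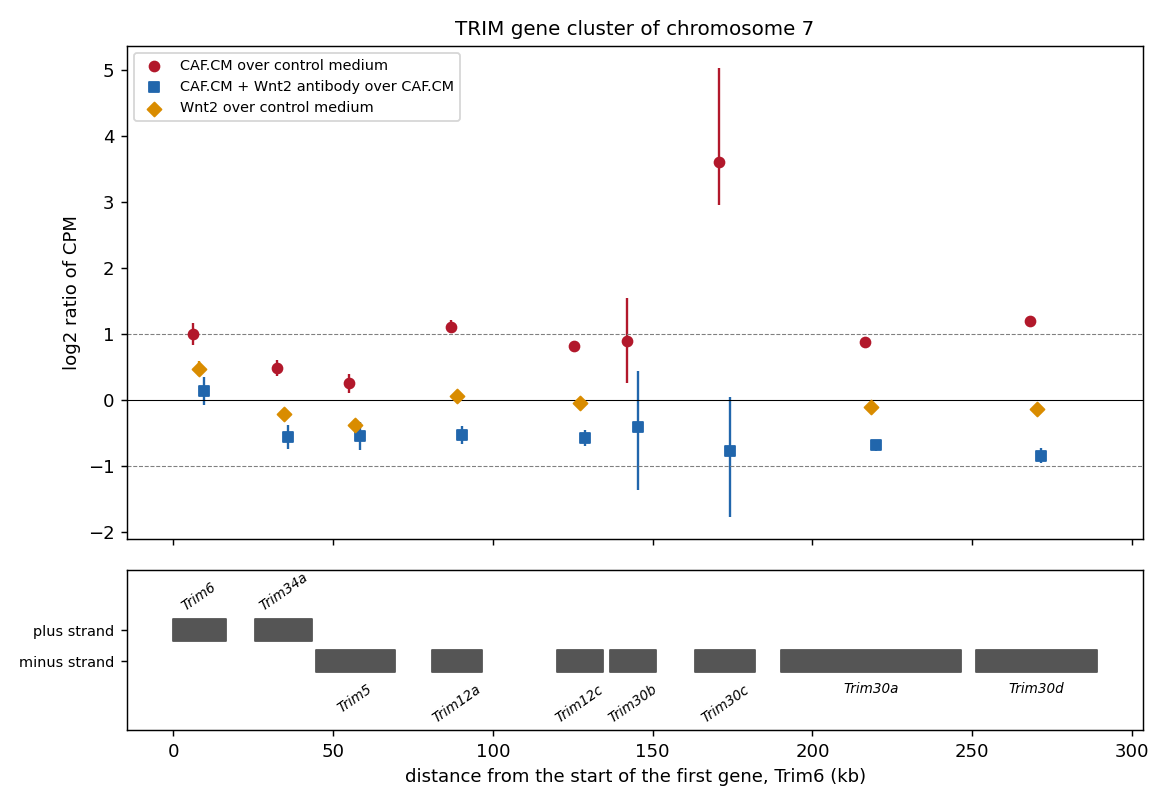
Log2 ratios of the chromosome 7 TRIM genes against distance in kilobases from the start of Trim6, for CAF.CM over control, antibody over CAF.CM and Wnt2 over control, with bars for the extent and strand of each gene. CAF.CM ratios lie between 0.25 (Trim5) and 3.61 (Trim30c), and antibody ratios between -0.85 (Trim30d) and 0.13 (Trim6).

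Trim25, at chromosome 11, 88999376 to 89020293, encodes the ligase that attaches ubiquitin to RIG-I and is itself interferon-inducible. It had 184 CPM with Wnt2, 461 CPM with the antibody and 449 CPM with CAF.CM, against 98.6 CPM in control medium. All 3 exposed libraries were above control, and the libraries with CAF.CM, with or without antibody, were nearly level. The log2 ratio was 2.19 (2.15 to 2.22) with CAF.CM over control, or 4.55-fold, and 0.04 (0.00 to 0.08) with the antibody over CAF.CM. With the antibody, 104% of the CAF.CM excess over control was left. In the authors' deposited table Trim25 had an adjusted p of 9e-23 with CAF.CM over control and 0.96 with the antibody over CAF.CM, and how those p-values were made from 1 column per group is not stated.

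Trim56, which marks STING and cGAS with ubiquitin, likewise stood above control with and without the antibody. It had 104 CPM with Wnt2, 111 CPM with the antibody and 115 CPM with CAF.CM, against 75.6 CPM in control medium, with log2 ratios of 0.60 with CAF.CM and -0.05 with the antibody. Of its excess over control, 90% was left with the antibody.

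Trim59, an endoplasmic reticulum membrane protein, had 4.49 CPM with Wnt2, 10.1 CPM with the antibody and 7.76 CPM with CAF.CM, against 3.26 CPM in control medium. Its log2 ratio was 1.25 (1.01 to 1.49) with CAF.CM and 0.37 (0.10 to 0.66) with the antibody, so the antibody library was the highest. Trim24, a TIF1 chromatin cofactor that reads histone tails, had 16.9 CPM with Wnt2, 42.3 CPM with the antibody and 37.1 CPM with CAF.CM, against 17.5 CPM in control medium. It was 2.12-fold higher with CAF.CM, and its antibody log2 ratio was 0.19 (0.06 to 0.32). Both had the interval of the antibody ratio above 0, as did Trim25, Trim28 and Trim39, 5 members in all, where 21.5% of all genes had. These 5 ratios, 0.04 to 0.37, were all below 1.5-fold.

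The other 2 members of the TIF1 group were level. Trim28, the corepressor recruited by KRAB zinc finger proteins, had 81.1 CPM with Wnt2, 86.2 CPM with the antibody and 80.2 CPM with CAF.CM, against 85.2 CPM in control medium. Trim33, a ligase acting on Smad4, had 57.9 CPM with Wnt2, 49.2 CPM with the antibody and 48.5 CPM with CAF.CM, against 55.4 CPM in control medium. Their ratios stayed within 0.19 of 0 in every comparison, and among the 3 listed TIF1 genes Trim24 alone was called, with CAF.CM and with the antibody, each over control medium. Trim66, the fourth TIF1 gene, had no row.

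Trim21 and Trim26, antiviral members outside the cluster, had smaller ratios in the interferon-like order. Trim21, the cytosolic receptor for antibody-coated viruses, had 16.8 CPM with Wnt2, 21.6 CPM with the antibody and 25.2 CPM with CAF.CM, against 18.4 CPM in control medium. Its log2 ratios were 0.46 with CAF.CM and -0.22 with the antibody. Trim26 was at 30.8 CPM with Wnt2, 33.4 CPM with the antibody and 38.6 CPM with CAF.CM, against 31.3 CPM in control medium. Trim27 had 38.1 CPM with the antibody and 38.7 CPM with CAF.CM, against 29.8 CPM in control medium. Its antibody log2 ratio of -0.02 had an interval (-0.15 to 0.11) that includes 0. The innate and antiviral group had 16 listed members, among them all 9 listed cluster genes. With CAF.CM, 4 (25%) were called higher and 0 lower, where 6.68% and 8.69% of all genes were, with a median of 0.71. The 4 were Trim25 and the cluster genes Trim12a, Trim30c and Trim30d. With the antibody, 0 were called higher and 1 (6.25%) lower, where 1.01% and 3.64% of all genes were, with a median of -0.53. Trim30b and Trim30c, among the 16, were above 1 CPM only with CAF.CM. The listing therefore fixed their direction in both comparisons, including the higher call of Trim30c.

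Trim7, known for binding glycogenin, had 5.77 CPM with Wnt2, 5.52 CPM with the antibody and 8.87 CPM with CAF.CM, against 5.82 CPM in control medium. Its log2 ratios were 0.61 (0.39 to 0.82) with CAF.CM and -0.68 (-1.01 to -0.37) with the antibody, on 128 reads with the antibody and 231 with CAF.CM. It was the one member outside the cluster to pass 1.5-fold in both steps in the interferon-like direction.

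Trim14, an adaptor of the mitochondrial antiviral protein MAVS that lacks a RING, was level between CAF.CM and control medium and lower with the antibody. It had 10.8 CPM with Wnt2, 8.75 CPM with the antibody and 13.9 CPM with CAF.CM, against 14.3 CPM in control medium. The log2 ratio was -0.04 (-0.21 to 0.12) with CAF.CM and -0.66 (-0.92 to -0.41) with the antibody. The exons of Trim14 overlap those of Nans on the other strand over 31.3% of their length, and the labels do not state whether counting used the strand.

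Trim65, which attaches ubiquitin to MDA5, had 11.2 CPM with Wnt2, 3.62 CPM with the antibody and 7.57 CPM with CAF.CM, against 11.4 CPM in control medium. Its log2 ratio was -0.59 (-0.81 to -0.38) with CAF.CM and -1.05 (-1.45 to -0.69) with the antibody, or 2.07-fold lower, so each step went down. In the authors' deposited table its antibody ratio had an adjusted p of 0.0036, beside 0.02 for Trim30a and 0.0025 for Trim30d. These were the only 3 of 43 members with an adjusted p under 0.05 for the antibody in the authors' deposited table, 6.98% of members against 6.98% of all genes.

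Trim47 lies next to Trim65 on chromosome 11, the 2 genes sharing 8.23% of the exon length of Trim47 on the same strand. It had 2.9 CPM with Wnt2, 0.474 CPM with the antibody and 1.07 CPM with CAF.CM, against 5.62 CPM in control medium. Behind these values were 445 reads with Wnt2, 11 with the antibody and 28 with CAF.CM, against 795 in control medium. Every exposed library was below control, and the log2 ratio was -2.36 (-2.98 to -1.84) with CAF.CM and -1.06 (-2.34 to -0.13) with the antibody. With 5 reads added in place of 2, its antibody ratio no longer reached 2-fold. Of that pair only the CAF.CM value of Trim47 was above 1 CPM, so the listing fixed the direction of the antibody ratio.

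Trim2, a ligase of neurofilament light chain with NHL repeats, had 2.28 CPM with Wnt2, 0.69 CPM with the antibody and 1.27 CPM with CAF.CM, against 5.09 CPM in control medium. The log2 ratio was -1.99 (-2.56 to -1.50) with CAF.CM and -1.15 (-1.35 to -0.97) with Wnt2, while the antibody ratio of -0.81 had an interval (-1.84 to 0.02) that includes 0. Of the antibody pair only the CAF.CM value of Trim2 was above 1 CPM, so the listing fixed the direction of that ratio. Of the other NHL repeat genes, Trim3 had ratios between -0.53 and 0.23 and Trim32 between -0.47 and 0.03 over the 3 comparisons. Trim16, which in human cells gathers at damaged lysosomes, had 3.25 CPM with Wnt2, 1.16 CPM with the antibody and 1.07 CPM with CAF.CM, against 3.14 CPM in control medium. It was 2.88-fold lower with CAF.CM and level in the Wnt2 and antibody comparisons, at 0.05 and 0.11.

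Lower ratios were also seen in abundant members. Trim44, which lacks a RING, had 72.6 CPM with Wnt2, 41 CPM with the antibody and 54 CPM with CAF.CM, against 85.8 CPM in control medium. Trim35 had 60.6 CPM with Wnt2, 48.9 CPM with the antibody and 60.8 CPM with CAF.CM, against 87.4 CPM in control medium. Both stayed under 2-fold in these 3 comparisons, with log2 ratios of -0.67 and -0.52 with CAF.CM and of -0.40 and -0.31 with the antibody. Trim8 was lower in smaller steps, at -0.51 with CAF.CM and -0.32 with the antibody. Trim29, known in mouse alveolar macrophages for driving the loss of NEMO, had 5.35 CPM with Wnt2, 3.19 CPM with the antibody and 4.99 CPM with CAF.CM, against 9.68 CPM in control medium. Trim68 had 4.61 CPM with Wnt2, 1.98 CPM with the antibody and 3.46 CPM with CAF.CM, against 6.56 CPM in control medium. Beside these values stands the summed macrophage marker level, most of it from Lyz2. That sum was 5676 CPM with the antibody and 8551 CPM with CAF.CM against 28502 CPM in control medium. Its part in the lower TRIM values was not tested.

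Against control medium directly, the antibody library had 5 members called higher, where 8.06% of all genes were, and 7 called lower, where 12.6% of all genes were. Trim25 had the log2 ratio 2.23, Trim59 1.62, Trim24 1.27 and Trim6 1.13, with Trim30c at 2.79. On the lower side Trim47 had -3.50, Trim2 -2.84, Trim68 -1.71, Trim65 -1.65, Trim29 -1.59, Trim16 -1.41 and Trim44 -1.07. Trim30a and Trim30d, nearer to control in the antibody library than in the CAF.CM library, had 0.20 and 0.36.

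Wnt2 alone gave smaller differences. Of the 40 members in that table, 0 were called higher, where 2.87% of all 13120 genes were, and 1, Trim2, was called lower, where 2.94% of all genes were. The median member had a log2 ratio of -0.03, against -0.02 over all genes. By intervals, 11 members lay above 0 and 16 below, where 34.8% and 40.9% of all genes did. At 1.5-fold, Trim25 was higher, where 7.38% of all genes were, and Trim2, Trim29, Trim36 and Trim47 were lower, where 8% of all genes were. Trim25 had a log2 ratio of 0.90 (0.87 to 0.93), or 1.86-fold, and was the highest of the family, followed by Trim6 at 0.47, Trim59 at 0.46 and Trim56 at 0.45. Trim36, whose COS box binds microtubules, had 5.25 CPM with Wnt2, 7.93 CPM with the antibody and 6.68 CPM with CAF.CM, against 10.5 CPM in control medium, with a Wnt2 log2 ratio of -0.99 (-1.12 to -0.87).

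The genes with the interferon-like order had ratios near 0 with Wnt2. Trim30a had -0.10, Trim30d -0.14, Trim12a 0.06, Trim12c -0.04 and Trim7 -0.01, and the median of the 7 listed cluster genes was -0.10. Farther from 0 in the cluster were Trim6 at 0.47, Trim5 at -0.38 and Trim34a at -0.21. The Wnt2 and CAF.CM ratios share the control library, so they are given side by side without a measure of likeness. In the authors' deposited table, 5 of the 40 members had an adjusted p under 0.05 with Wnt2, Trim25 higher and Trim2, Trim29, Trim36 and Trim47 lower, 12.5% of members against 15.4% of all genes. With CAF.CM over control the authors' deposited table gave 24 of 43 members such a p, 13 higher and 11 lower, 55.8% of members against 32.6% of all genes. Among the 13 are Trim30b and Trim30c, whose direction was fixed by the listing.

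The family was set beside the pathways in which it acts. Of 34 interferon-stimulated genes, 24 were called higher and 0 lower with CAF.CM, where 6.68% and 8.69% of all genes were. Their median log2 ratio was 1.98. With the antibody, 0 of the 34 were called higher and 15 lower, where 1.01% and 3.64% of all genes were, with a median of -0.93. The chromosome 7 TRIM genes had medians of 0.90 and -0.56 in the same comparisons, and Trim25 had 2.19 and 0.04. The listing fixed the signs of Trim30b and Trim30c among the chromosome 7 genes, and of Ifit3b among the 34. Values like those of Trim25 also occurred among the 34, in Bst2 (2.22 and 0.11) and Isg20 (2.73 and 0.19), the 2 genes above 0 with the antibody. Over control medium, 13 of the 34 were still called higher in the antibody library, where 8.06% of all genes were.

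Of 24 genes of RIG-I and cGAS signalling, the route in which Trim25, Trim56 and Trim65 act, 4 were called higher and 0 lower with CAF.CM. Of all genes 6.68% and 8.69% were, and the median of the 24 was 0.24. Irf7, Ddx58 and Ifih1 stand in this list and in the interferon-stimulated list. The 4 were Irf7 (3.73), the master regulator of interferon genes, Dhx58 (1.42), a RIG-I-like receptor, Tnfaip3 (1.19), an inhibitor of NF-kB, and Ddx58, which encodes RIG-I. With the antibody 0 of the 24 were called in either direction, with a median of -0.12, and with Wnt2 likewise 0, with a median of -0.02. Ddx58, the substrate of Trim25, had 57.1 CPM with the antibody and 91.9 CPM with CAF.CM, against 42.9 CPM in control medium, while Trim25 had 461 CPM with the antibody and 449 CPM with CAF.CM, against 98.6 CPM in control medium. Ifih1, which encodes MDA5, had log2 ratios of 0.65 with CAF.CM and -0.60 with the antibody, where its ligase Trim65 had -0.59 and -1.05.

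TRIM proteins with other symbols differed among themselves. Mefv, which encodes pyrin, an inflammasome sensor, had 13.4 CPM with Wnt2, 24.7 CPM with the antibody and 53.1 CPM with CAF.CM, against 11.8 CPM in control medium. Its log2 ratios of 2.17 with CAF.CM and -1.10 with the antibody passed 2-fold in both steps in the interferon-like direction, which 0 of the 43 members did. Pml, the organiser of nuclear bodies, had 0.68 with CAF.CM and -0.08 with the antibody. Mid1, a microtubule-bound ligase, had -0.59 and 0.20, and Mid2 had no row.

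The remaining members had ratios of under 2-fold in all 3 comparisons. Trim11 met the interferon-like order by its intervals, at 0.18 with CAF.CM and -0.26 with the antibody. With CAF.CM, Trim45 (0.80), Trim43c (0.82) and Trim23 (0.33), which carries an ARF domain, had intervals above 0, and Trim13 (-0.30), an endoplasmic reticulum ligase, and Trim41 (-0.14) had intervals below 0. Trim39 had 0.06, Trim46 -0.09, Trim17 0.04 and Trim62 -0.19, with intervals that include 0. Trim37, mutated in human mulibrey nanism, had -0.15 with CAF.CM, 0.08 with the antibody and -0.40 with Wnt2.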

How the data were processed

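RNA of 4 groups, 1 library each, was made into stranded libraries from 1 ug of total RNA per the labels' protocols. Per the submitters' processing notes, the tools were RSEM 1.2.29, STAR 2.4.2a and edgeR and the builds mm10 and GRCm38.p5, with no order or settings. The authors deposited normalized CPM per library, 1 table for each of 3 comparisons, with log2 fold changes, p-values and adjusted p-values, per the file headers. Each table lists genes of about 1 CPM or more in at least 1 library, so a missing gene is not shown to be silent.

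The deposited CPM were whole multiples of what 1 read was worth, within 0.1 step, for 100% of values in each library, which gave the reads behind each value. Log2 ratios used CPM with 2 reads added to each library. Exact conditional binomial intervals (Clopper-Pearson, 95%) cover counting error only. Software was Python 3.11.15 and its packages pandas 2.3.3, numpy 2.4.6, matplotlib 3.10.9 and scipy 1.17.1, the last for the intervals. PCR reads are not independent molecules. With 1 library per group no test was run, and the ratio and interval step was tested on simulated data. The plan's DESeq2 size factors were replaced by median ratios computed directly, because the values are not counts. Members matched a symbol rule, and all 43 were kept without a filter. Values in all libraries are given for members called at 2-fold, those meeting the 1.5-fold pattern, the 6 most abundant, and a short set of well-studied members, and some others were added after their values were seen. Members, role groups and gene lists were chosen with earlier results of these data known. Gene positions and shared 31-base words came from GENCODE M21, promoter windows from RefSeq GRCm38.p6. A member missing from the RefSeq table was not searched.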

Additional observations from a re-analysis of the deposited data

How the results depend on the processing

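With 2-fold replaced by 1.5-fold, the members called with CAF.CM over control were 14 higher and 8 lower, in place of 6 and 3. In the same setting 10 were lower with the antibody in place of 2, 1 was higher and 4 were lower with Wnt2 in place of 0 and 1, and 4 met the combined pattern in place of 0. Lower calls with the antibody came to 1 with 5 reads added, to 1 with a minimum of 100 reads over both libraries, which left 36 members, and to 0 where the whole interval had to lie beyond 2-fold. That last rule also left 0 lower calls with Wnt2. The other counts stayed within 1.5 times and the family medians kept their direction under total-read scaling, median-ratio factors, 0.5 or 5 reads added, the read minimum and the authors' fold changes, and when members sharing 20% or more of their words were left out, an alternative added after the data were seen. Of 423 values of 21 named members under alternatives, 4 moved beyond their counting interval, all with CAF.CM. These were Trim25 (2.25 with total reads, 2.23 with median ratios), Trim30a (0.94) and Trim56 (0.66), both with total reads. Scaling moved the median of all genes by at most 0.06. Ratios close to 0 changed sign with it, Trim14 with CAF.CM (-0.04, and 0.02 with total reads, 0.00 with median ratios), Trim7 with Wnt2 (-0.01, and 0.01 with median ratios), and with the antibody Trim3 under total reads and Trim27 and Trim41 under median ratios. No paired analysis was possible because each group has 1 library, and no replicate could be left out. Depth limits the members under 50 reads in the CAF.CM library, Trim2, Trim16, Trim30b, Trim30c, Trim43c, Trim47 and Trim62.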
